A study of Mus musculus with 28 samples.

Results

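Motile cilia axoneme genes encode the microtubule skeleton that lets a cilium beat, with its motors and the factors that build them. They were followed in bulk tissue of the lateral ventricle choroid plexus, whose epithelium secretes cerebrospinal fluid. Members were chosen by name as protein-coding mouse genes of the Cfap, Dnah, Dnaaf, Rsph, Tekt and Drc series followed by a number, together with Foxj1, Ccdc39 and Ccdc40. In all, 74 of 27179 genes in the count tables matched, 34 of them Cfap, 15 Dnah, 7 Dnaaf, 7 Rsph, 5 Tekt and 3 Drc genes. A mean of at least 0.5 CPM (a gene's counts scaled to a fixed library total) kept 66 members in the young table and 70 in the aged table. All 66 were among the 70, and Cfap46, Cfap99, Dnah17 and Tekt2 were kept only in the aged table. Cfap97d1, Dnaaf6, Rsph6a and Tekt3 were kept in neither. The threshold was applied to CPM by total count, on which Dnah17 lay just under it in the young table at a mean of 0.446 and Dnah10 just above it at 0.647. All CPM values below are scaled by TMM, a correction of library totals, and differ slightly from these. In GRCm38 coordinates, the members described most were Foxj1 (Entrez 15223, chr11:116330704-116335499), Ccdc39 (51938, chr3:33810757-33844325), Ccdc40 (207607, chr11:119228490-119265248), Cfap54 (380654, chr10:92775609-93083487), Cfap61 (78774, chr2:145934757-146215035), Dnah6 (330355, chr6:73017603-73222227) and Rsph4a (212892, chr10:33905111-33916021).

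Poly(A) RNA of male mice was sequenced in 28 libraries, 4 in each of 7 groups. Young mice were wild-type, 3 to 4 months old and sequenced in batch 1. They were sampled at zeitgeber time (ZT) 6, in the light phase (young day), at ZT18, in the dark phase (young night), or at ZT6 after 6 h of sleep disruption. Aged mice were 12 to 14 months old and sequenced in batch 2. They were J20+, carrying a transgene for human amyloid precursor protein that holds familial Alzheimer mutations (the J20 line, driven by a platelet-derived growth factor promoter active mainly in neurons), or J20-, labelled wild-type, and were sampled at ZT6 (day) or ZT18 (night). All mice were perfused with saline before dissection. The labels list separate samples and do not say whether each came from a separate mouse, so p-values measure the spread between these samples, which may be technical in part. Age and batch cannot be told apart, and levels are therefore compared within a table only.

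In the textbook axoneme, outer doublet microtubules surround a central pair. Outer and inner dynein arms on the doublets slide them against each other. Radial spokes, the central apparatus and the nexin-dynein regulatory complex control the arms, and proteins inside the doublets brace them. Multiciliated ependymal cells that line the ventricle beat to move fluid, while choroid plexus epithelial cells carry tufts of cilia that share many axonemal parts. FOXJ1 is the transcription factor that switches on the motile cilia programme, together with RFX factors that bind a sequence called the X-box.

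The 5 promoters printed here (300 bases each) show motifs found around the start sites of members. They come from RefSeq (GRCm38.p6, the assembly that mm10 names) and cover 250 bases before and 50 after the annotated start, read 5′ to 3′ on the gene's strand. Capitals mark an X-box arm (GTTGCC, or GGCAAC on the other strand), a facing pair of looser arms (GTTNCC and GGNAAC with 0 to 3 bases between) or a forkhead motif (GTAAACA, or TGTTTAC on the other strand). Cfap20dc and Cfap298 were chosen for facing pairs, Cfap300 for a lone arm, Dnah10 for 2 arms that do not face each other and Cfap43 for a forkhead motif.
Cfap20dc (chr14:8666241-8666540, minus strand): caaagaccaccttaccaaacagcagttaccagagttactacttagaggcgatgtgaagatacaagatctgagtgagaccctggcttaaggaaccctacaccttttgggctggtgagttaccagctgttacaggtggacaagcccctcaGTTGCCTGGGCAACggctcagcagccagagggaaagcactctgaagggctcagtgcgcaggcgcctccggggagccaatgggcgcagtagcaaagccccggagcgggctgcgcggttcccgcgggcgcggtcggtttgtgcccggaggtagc
Cfap298 (chr16:90934800-90935099, minus strand): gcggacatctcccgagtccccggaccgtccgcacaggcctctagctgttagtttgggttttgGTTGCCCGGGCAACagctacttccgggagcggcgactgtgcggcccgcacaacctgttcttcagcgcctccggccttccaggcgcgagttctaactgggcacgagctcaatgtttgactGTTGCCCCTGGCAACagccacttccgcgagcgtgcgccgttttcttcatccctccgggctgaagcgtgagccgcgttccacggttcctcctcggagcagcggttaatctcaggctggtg
Cfap300 (chr9:8042826-8043125, minus strand): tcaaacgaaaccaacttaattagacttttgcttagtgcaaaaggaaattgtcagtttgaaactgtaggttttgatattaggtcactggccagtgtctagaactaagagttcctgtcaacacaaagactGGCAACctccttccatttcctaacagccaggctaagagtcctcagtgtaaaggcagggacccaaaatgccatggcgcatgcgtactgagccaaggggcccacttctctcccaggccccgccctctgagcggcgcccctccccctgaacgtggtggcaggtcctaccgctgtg
Dnah10 (chr5:124724835-124725134, plus strand): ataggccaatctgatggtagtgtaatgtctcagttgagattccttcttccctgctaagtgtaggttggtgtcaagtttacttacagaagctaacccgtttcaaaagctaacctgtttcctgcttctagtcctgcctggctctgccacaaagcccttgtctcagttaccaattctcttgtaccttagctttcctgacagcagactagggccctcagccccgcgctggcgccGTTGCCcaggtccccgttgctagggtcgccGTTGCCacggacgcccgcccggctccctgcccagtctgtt
Cfap43 (chr19:47837312-47837611, minus strand): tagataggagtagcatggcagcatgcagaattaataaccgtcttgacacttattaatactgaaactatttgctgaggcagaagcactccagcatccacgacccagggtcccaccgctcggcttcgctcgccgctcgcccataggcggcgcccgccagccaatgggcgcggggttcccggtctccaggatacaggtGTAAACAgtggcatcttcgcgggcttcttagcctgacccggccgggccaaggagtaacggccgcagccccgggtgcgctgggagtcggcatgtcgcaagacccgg

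Promoters were found for 62 of the 74 members, and 25 of these (40.3%) held GTTGCC on either strand, against 14.1% of 27025 genes with a promoter and 12.5% of 32851 promoter windows. Facing arms were in 4 members (6.45%), Cfap20dc, Cfap298, Dnaaf6 and Dnaaf6b, against 0.936% of genes and 0.804% of windows. GTAAACA was in 4 members (6.45%), Cfap20, Cfap43, Dnah17 and Tekt3, against 4.05% of genes and 3.65% of windows. The X-box searches overlap, since GTTGCC can also be an arm of a facing pair. In Cfap298 the first facing pair starts 188 bases before the start site, and in Cfap20dc 102 bases before it. In Cfap300 the arm starts 122 bases before the site, and the Cfap43 forkhead motif 55 bases. In Dnah10 the first of the 2 arms starts 20 bases before the site and the other lies past it. These are letter matches with no binding data, and a window without a match says nothing about a factor. Dnah7a, Dnah7b and Dnah7c each held a GTTGCC. They are close paralogs, as are Rsph3a and Rsph3b and Dnaaf6 and Dnaaf6b, so counts of each may be split between copies and are uncertain.

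Total counts ran from 22.5M to 29M per young library, from 14.6M to 20.5M per J20- library and from 15.5M to 43.9M per J20+ library. Markers of choroid epithelium were high in all libraries, with 15 of 15 markers (Ttr, Kcnj13, Folr1 and others) passing the count filter and mean log2 CPM from 9.16 to 10.59. In the aged table the neural score, the mean log2 CPM of 30 neuron, oligodendrocyte and astrocyte markers, ran from 1.16 to 6.77, and the ependyma score (12 markers, some of them cilia genes but none a member) from 2.26 to 5.57. All 12 ependyma markers had counts in all libraries. In bulk tissue, fewer cells of a type and less RNA per cell cannot be told apart.

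Members covered a wide range of levels, given here as CPM per kilobase of exon for comparisons between genes. In the young table Cfap36, a gene of the Arl3 pathway at the ciliary base, was highest at 102.6 CPM per kb. It was followed by Cfap300 (96.5), a dynein assembly factor, Rsph4a (82.1), a radial spoke head protein, Drc7 (71.7) of the nexin-dynein complex and Cfap298 (44.2), another dynein assembly factor. The lowest kept members were Dnah10 (0.0406 CPM per kb), Dnah8 (0.0577), Dnah14 (0.108), Dnah5 (0.113) and Cfap100 (0.234). In the aged table Drc7 led with 243.8 CPM per kb, followed by Rsph1 (115.8), Rsph9 (111.1), Foxj1 (88.1) and Cfap298 (79.9). Dnah8 (0.0609), Dnah14 (0.106), Dnah7a (0.204), Dnah17 (0.218) and Cfap46 (0.256) were lowest there. The extremes belong to different roles, among them assembly factors, so the span does not compare subunits of a single complex.

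**Figure D1:**
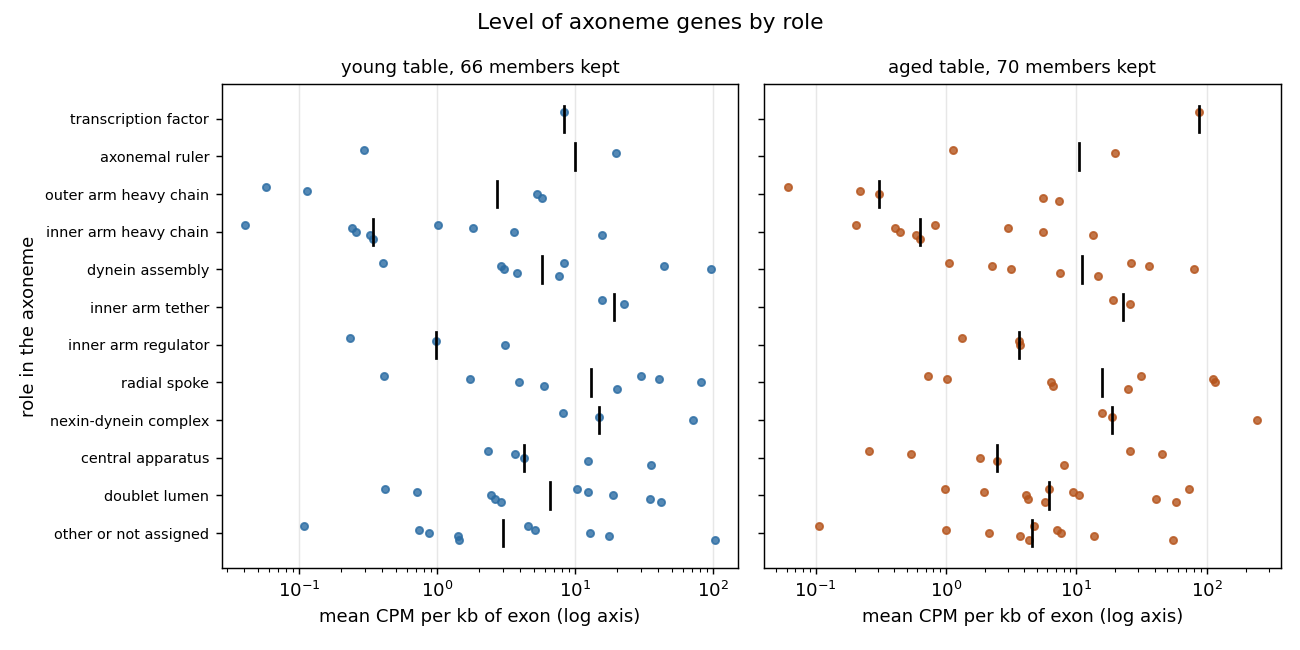
Mean CPM per kb of exon (horizontal log axis) of each kept member, a point each, by role in the axoneme (vertical), in the young table (left) and the aged table (right), with the median of a role as a black bar. Cfap47 has no exon length and is left out. Heavy chains of the dynein arms span from 0.0406 (Dnah10) to 15.7 (Dnah6) CPM per kb in the young table.

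Several members that share a role differed in level. CCDC39 and CCDC40 form the molecular ruler that spaces the arms and spokes along the doublet. Within the young table Ccdc39 averaged 19.7 CPM per kb and Ccdc40 0.296. Within the aged table Ccdc39 averaged 19.7 and Ccdc40 1.13. Among outer arm heavy chains of the young table, Dnah11 (5.75 CPM per kb) and Dnah9 (5.30) were above Dnah5 (0.113) and Dnah8 (0.0577). Among inner arm chains, Dnah6 (15.7 CPM per kb) was above Dnah2 (1.82), Dnah12 (0.324) and Dnah10 (0.0406). Cfap43 and Cfap44, which tether inner arms, were near each other at 15.6 and 22.5 CPM per kb. Highest by mean CPM within a family, young then aged, were Cfap36 (281.5) and Cfap65 (356.6), Dnah6 (207.5 and 178.2), Dnaaf5 (26.9) and Dnaaf3 (58.5), Rsph4a (299.5) and Rsph9 (178.0), Tekt1 (68.1 and 119.8) and Drc7 (214.2 and 728.3).

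Members varied between libraries, and the tables differ in their numbers of libraries and groups. Over the 16 aged libraries a member's highest level was a median of 2.72 times its lowest among 69 members with no 0. Over the 12 young libraries it was 1.79 times (66 members). The ratio was over 5 in 16 aged and 5 young members and under 2 in 17 aged and 41 young members. Drc3 of the nexin-dynein complex was the steadiest aged member, at 75.6 to 97.1 CPM, and Dnah5, an outer arm motor, the least steady, at 0.201 to 35.9 CPM.

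The first comparison asks which genes differ between night and day in young mice. No axoneme member passed the test, and most members had slightly lower values at night. The lowest values relative to their error were those of Cfap54, a component of the central apparatus, Dnah6, an inner arm motor, and Cfap20dc. Foxj1 had a positive value.

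Cfap54 stood at 64.8, 46.6, 68.5 and 60 CPM in young day libraries and at 42.8, 41.9, 41.7 and 45.6 CPM in young night libraries. All 4 night libraries were below all 4 day libraries, and the night values lay close together. The log2 fold change was -0.48 ± 0.10 (SE, n = 4 per group), 1.40-fold lower at night, with an adjusted p of 0.107 in edgeR's quasi-likelihood test. Dnah6 stood at 234, 192, 234 and 208 CPM by day and at 201, 170, 174 and 170 CPM at night. A single night library reached into the day range, and the log2 fold change was -0.28 ± 0.08 (adjusted p = 0.273, edgeR). Cfap20dc, whose role in the axoneme is less settled, stood at 15.2, 15.7, 15.4 and 16.1 CPM by day and at 11.6, 13.5, 13.2 and 12.9 CPM at night. These groups did not overlap, at a log2 fold change of -0.28 ± 0.09 (adjusted p = 0.329, edgeR).

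Foxj1 was at 17.6, 23.7, 13.2 and 14.6 CPM by day and at 26, 26.2, 21.5 and 15.8 CPM at night. The groups overlapped, with a log2 fold change of 0.37 ± 0.22 (adjusted p = 0.620, edgeR) and a 95% interval from -0.13 to 0.88. Ccdc39 was nearly level between the groups, at -0.03 ± 0.14 on the log2 scale. Ccdc40 had -0.54 ± 0.22 (adjusted p = 0.473, edgeR), at low levels of 1.61 to 2.99 CPM by day and 1.17 to 1.74 CPM at night.

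Of the 66 members tested, 0 were called in edgeR at an adjusted p under 0.05, while 0.267% of 14983 genes were. DESeq2 called 2 members, Cfap54 and Dnah6, both lower at night, and 1.72% of all genes. At an unadjusted p under 0.05 there were 14 members (21.2%) and 9.39% of all genes, with 13 members lower, against 4.52% of all genes lower. In sign, 48 members were negative and 18 positive, with a median log2 fold change of -0.09 against 0.02 over all genes. Without young night library 4, 35 members were negative. That library held the lowest level of 34 of the 66 members. In it Drc7 was at 139 CPM against 242 to 260 in the other night libraries, Tekt1 at 45.5 against 79.4 to 82.3 and Cfap65 at 56.8 against 90.4 to 105. Its macrophage score was 3.88 against 1.33 to 2.46 in the other young libraries. Its neural score was 3.30, against 1.55 to 3.12 in the others. Over all young libraries, macrophage markers summed to 57.8 to 108 CPM by day and 76.2 to 290.5 CPM at night, with 10 of 10 values positive (median 1.02). Ependyma markers summed to 175.4 to 211.4 CPM by day and 160.8 to 166.2 CPM at night, with 3 of 12 positive (median -0.29). Choroid epithelium markers also leaned lower at night, with 3 of 15 positive (median -0.14). Fibroblast (7 of 7, 0.24), endothelium (10 of 10, 0.18) and mural markers (9 of 9, 0.30) were all positive. Neuron (9 of 10, 0.13) and astrocyte markers (9 of 10, 0.28) were mostly positive, and oligodendrocyte markers mostly negative (1 of 8 positive, -0.07). Beyond adding a neural or ependyma score to the fit, the part of these markers in the result was not tested.

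By role, 8 of 9 inner arm heavy chains had negative values at night (median -0.40), with Dnah2 as the exception. Values were negative for 7 of 8 dynein assembly genes (median -0.17), 4 of 4 outer arm heavy chains (-0.09) and 5 of 6 central apparatus genes (-0.15). Radial spoke genes had 5 positive and 3 negative values (median 0.01), and doublet lumen genes 4 positive and 6 negative (-0.03). None of these passed the test in edgeR. Dnah10 (-1.15 ± 0.50), Dnah5 (-0.94 ± 0.75) and Dnah12 (-0.90 ± 0.49) had large values with large errors, on mean levels over the young libraries of 0.653, 1.76 and 3.88 CPM.

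Other ciliary genes are described by the sign of their values. At young night against day, of 48 tested genes for other axoneme parts, 17 were positive (median -0.12), and of 31 for intraflagellar transport, which carries parts along the cilium, 12 were positive (-0.03). All 10 genes of the BBSome, a cargo adaptor of ciliary trafficking, were negative (median -0.12), and 6 of 14 regulators of multiciliated cells were positive (-0.03). The lists are not fully separate, since Fam216b is both among these regulators and among the ependyma markers.

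Sleep disruption was compared with undisturbed young mice at the same ZT to find genes that respond to it. No axoneme member passed the test. Most values were slightly positive, with Dnaaf3, an assembly factor of dynein arms, and Foxj1 among those with the smallest p, and Dnah3, an inner arm motor, on the other side.

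Dnaaf3 stood at 6.49, 7.80, 8.28 and 9.88 CPM after sleep disruption and at 5.34, 5.80, 5.07 and 5.2 CPM in young day libraries. All disrupted libraries were above all day libraries, at a log2 fold change of 0.60 ± 0.20 (adjusted p = 0.861, edgeR). Foxj1 stood at 17.7, 27, 24.2 and 31.3 CPM after disruption; 3 of the 4 were above all day libraries. The log2 fold change was 0.54 ± 0.22 (95% interval 0.03 to 1.04, adjusted p = 0.861, edgeR). Dnah3 was at 5.55, 3.37, 4.31 and 4.25 CPM after disruption and at 6.43, 4.34, 6.94 and 5.75 CPM by day, with overlap, at -0.42 ± 0.18. Ccdc39 had 0.03 ± 0.14 and Ccdc40 -0.36 ± 0.22 on the log2 scale.

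Neither edgeR nor DESeq2 called any member here or any gene at all (0% of 14983). At an unadjusted p under 0.05 there were 4 members (6.06%), beside 2.4% of all genes. Values were positive for 45 members and negative for 21, with a median of 0.08 against 0.00 over all genes. Sleep disruption library 4 held the highest level of 25 of the 66 members over the young libraries and the lowest of none. Without it, 23 members were negative and the median was 0.06. Ependyma markers summed to 162.5 to 203.2 CPM after disruption, and 5 of 12 were positive. All 10 doublet lumen genes were positive, from 0.07 to 0.36 (median 0.24). These include Tekt1, Tekt4 and Tekt5, whose tektin filaments brace the doublet from inside, and the 3 nexin-dynein genes were positive as well (median 0.17). Inner arm heavy chains had 3 positive and 6 negative values (median -0.14). The median SE of a member was 0.16, so differences of the size seen in most members were within their error.

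Night was also compared with sleep disruption, using the same young night libraries as above, so its values are not independent of those against day. Most axoneme values were lower at night here too, with Dnah6, Cfap54 and Dnah1 at the smallest p, and none passed the test.

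Dnah6 was at 236, 222, 219 and 229 CPM after sleep disruption, and the night libraries given above were all lower. The log2 fold change was -0.34 ± 0.08 (adjusted p = 0.138, edgeR), 1.26-fold lower at night. Cfap54 was at 57.6, 53.5, 57.9 and 60.2 CPM after disruption, again above all night libraries, at -0.41 ± 0.10 (adjusted p = 0.153, edgeR). Dnah1, an inner arm motor, was at 3.73, 3.56, 4.09 and 4.32 CPM after disruption and at 2.35, 2.75, 3.21 and 2.13 CPM at night. The groups did not overlap, and the log2 fold change was -0.59 ± 0.16 (adjusted p = 0.185, edgeR). Foxj1 had -0.16 ± 0.22, Ccdc39 -0.06 ± 0.14 and Ccdc40 -0.17 ± 0.22.

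Of 66 members, edgeR called 0 and 0.38% of all genes. DESeq2 called 4, Cfap20dc, Cfap54, Dnah1 and Dnah6, all lower at night, and 2.08% of all genes. There were 12 members (18.2%) at an unadjusted p under 0.05, beside 9.7% of all genes, and all 12 were lower, beside 4.59% of all genes. In sign, 59 members were negative and 7 positive, with a median of -0.18 against 0.01 over all genes. Without young night library 4, 49 were negative, and without sleep disruption library 4, 53. Of the marker lists of other cells given here, no gene was called. Of ependyma markers 3 of 12 were positive (median -0.19), while macrophage (10 of 10, 1.08), endothelium (10 of 10, 0.37) and mural markers (9 of 9, 0.40) were positive throughout. Macrophage markers summed to 56.9 to 78.6 CPM after disruption. Beyond adding a neural or ependyma score to the fit, the part of these markers in the result was not tested. All 8 dynein assembly genes were negative, from -0.46 (Dnaaf3) to -0.16 (Dnaaf2), and 8 of 9 inner arm chains were (median -0.20). Among 48 genes for other axoneme parts, 6 were positive and 1 was called in edgeR. This was Spag1, a dynein assembly factor, lower at night by -0.42 ± 0.07 (adjusted p = 0.0286, edgeR).

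**Figure D2:**
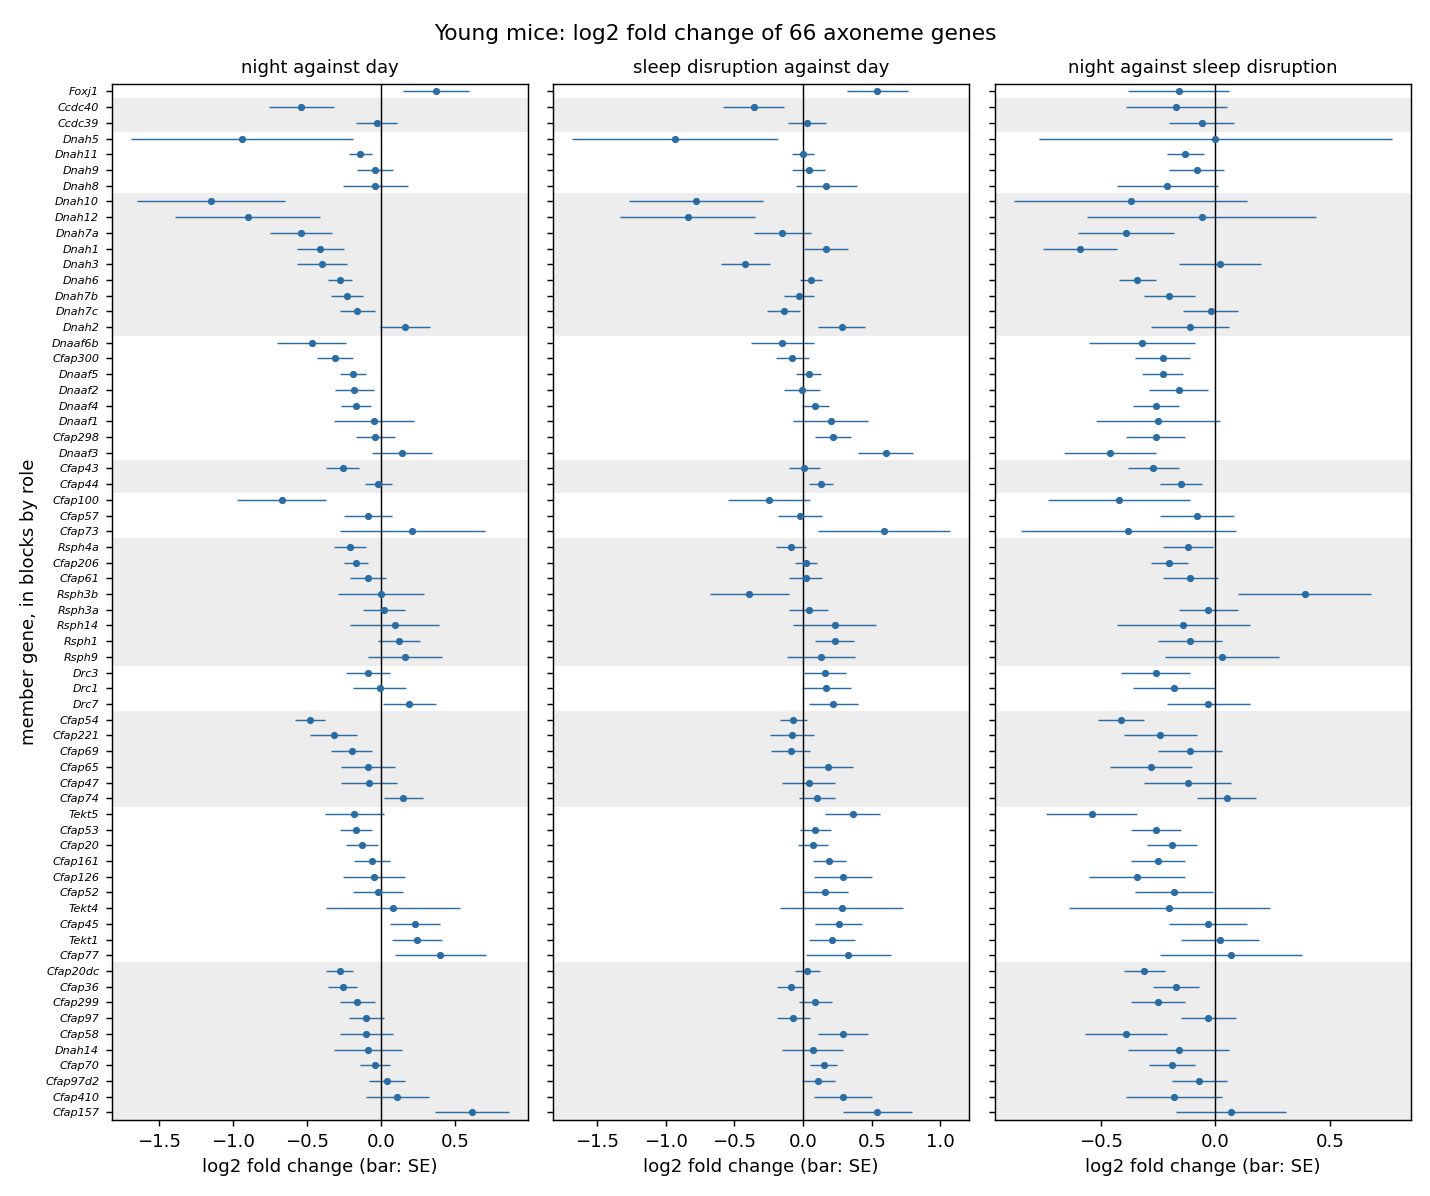
Log2 fold change (horizontal, bars are the SE) of the 66 members kept in the young table (vertical, in shaded blocks by role), with 4 libraries per group. At night against sleep disruption 59 of 66 points lie left of 0, against day 48, and after sleep disruption against day 21.

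In aged J20- mice, night was compared with day. No axoneme member passed the test with all 16 aged libraries in the fit, and members had values on both sides of 0. The 6 with the smallest p had lower values at night: Cfap61 and Cfap206, which belong to radial spokes, Cfap54 of the central apparatus, the outer arm motor Dnah11, Drc7 and Rsph4a. The groups of Dnah11 overlapped (-0.49 ± 0.16), and those of the other 5 did not. Of all 70 members, 5 were without overlap above day and 8 below it. Over the 16065 genes tested these numbers were 1741 and 2449. Others, such as Ccdc39, Cfap43 and several heavy chains, had higher values at night.

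Cfap61 was at 10.8, 7.49, 5.80 and 21 CPM in J20- day and at 3.43, 2.82, 2.82 and 2.32 CPM in J20- night libraries. All night libraries were lower, and the day values were spread widely. Its log2 fold change was -1.99 ± 0.53, 3.96-fold lower at night (adjusted p = 0.144, edgeR). Cfap206 was at 66.3, 67.6, 62.6 and 74.9 CPM by day and at 48.4, 48.4, 57.5 and 38.0 CPM at night, without overlap, at -0.50 ± 0.14 (adjusted p = 0.144, edgeR). Cfap54 was at 31.1, 26, 24.2 and 75.9 CPM by day and at 16.7, 20.4, 14.3 and 16.3 CPM at night. Its groups did not overlap either, though the day mean rests in part on library 4, and its log2 fold change was -1.22 ± 0.35 (adjusted p = 0.144, edgeR). Without J20- day library 4 it was -0.71.

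Foxj1 was at 248, 245, 215 and 201 CPM by day and at 210, 222, 302 and 304 CPM at night, with overlap, at 0.19 ± 0.14 (95% interval -0.12 to 0.51). Ccdc39 was at 108, 144, 176 and 82.6 CPM by day and at 156, 256, 192 and 187 CPM at night, with overlap, at 0.63 ± 0.42 (adjusted p = 0.272, edgeR). Ccdc40 had 0.76 ± 0.66.

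Of 70 members, edgeR called 0 and 0.0124% of 16065 genes. DESeq2 called 7, Cfap206, Cfap20dc, Cfap54, Cfap61, Dnah11, Drc7 and Rsph4a, and 8.65% of all genes. At an unadjusted p under 0.05 there were 15 members (21.4%), a smaller share than the 31.1% of all genes. Of these members 14 were lower, beside 15.2% of all genes lower. In sign, 40 members were positive and 30 negative, with a median of 0.09 against 0.03 over all genes. Radial spoke genes had 5 negative of 8 values (median -0.35), while 8 of 9 inner arm chains were positive (0.28). Fitted on the J20- libraries alone, so that J20+ libraries did not enter the estimate of the spread, edgeR called 15 members (21.4%), 5 higher and 10 lower at night, beside 26.2% of 15385 genes. The lower ones included Tekt5 (-1.01 ± 0.19), Cfap61 (-1.97 ± 0.39), Rsph4a (-0.94 ± 0.21) and Cfap54 (-1.20 ± 0.36). The higher ones were Cfap100 (1.73 ± 0.34), Cfap46 (2.69 ± 0.69), Dnah1 (0.93 ± 0.22), Dnah3 (1.00 ± 0.28) and Cfap43 (0.59 ± 0.17), each log2 ± SE with 4 libraries per group and adjusted p from 0.037 to 0.0451 over the 15 in edgeR. Without J20+ day library 1 and J20+ night library 2 in the full fit it called 23 (32.9%), beside 44.4% of 16115 genes.

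Marker genes of other cells moved with this comparison. The neural markers summed to 373.2 to 3328 CPM in J20- day and to 1227 to 8124 CPM in J20- night libraries. Of 30 neural markers, 1 was at 0 in a single J20- day library. Ependyma markers summed to 202.8 to 311.7 CPM by day and to 372.7 to 475.8 CPM at night. All 15 choroid epithelium markers had negative values at night (median -0.77). Beyond adding a score to the fit, the part of these markers in the members' values was not tested. With the neural score as a covariate 51 of 70 members had negative values, in place of 30, and Ccdc39 had -0.05 and Ccdc40 -0.70. With the ependyma score, which itself holds some cilia genes, the number was also 51.

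In J20+ mice, night was compared with day in the same way. No axoneme member passed the test. The smallest p-values belonged to Cfap73, a regulator of inner arms, Cfap58 and Cfap161, a protein inside the doublet, all with lower values at night.

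Cfap73 was at 5.2, 3.84, 5.08 and 5.02 CPM by day and at 2.70, 2.77, 2.41 and 2.94 CPM at night. The groups did not overlap and night values were close together, with a log2 fold change of -0.82 ± 0.22, 1.77-fold lower at night (adjusted p = 0.521, edgeR). Cfap58 was at 5.61, 3.42, 5.40 and 4.51 CPM by day and at 3.19, 1.92, 3.15 and 3.21 CPM at night, without overlap, at -0.72 ± 0.23 (adjusted p = 0.643, edgeR). Cfap161 was at 27.8, 11.8, 13.6 and 13.2 CPM by day and at 7.80, 12.4, 9.71 and 10.8 CPM at night. Library 1 lay far above the other day libraries, the groups overlapped, and the log2 fold change was -0.71 ± 0.26 (adjusted p = 0.652, edgeR).

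Foxj1 was at 231, 222, 207 and 227 CPM by day and at 192, 250, 213 and 208 CPM at night, at -0.04 ± 0.14 (95% interval -0.35 to 0.27). Ccdc39 was at 111, 128, 87.1 and 73.7 CPM by day and at 91.5, 367, 104 and 82.3 CPM at night. The value of 0.69 ± 0.42 rests on night library 2, and without it Ccdc39 had -0.10. Ccdc40 was at 25.6, 4.36, 3.04 and 2.41 CPM by day and at 2.70, 9.22, 3.37 and 3.56 CPM at night. Its value of -0.91 ± 0.66 rests on day library 1, and without it Ccdc40 had 0.52.

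Of 70 members, edgeR called 0 and 0.0436% of all genes, and DESeq2 called 1, Cfap73, and 0.492% of all genes. There were 7 members (10.0%) at an unadjusted p under 0.05, beside 7.41% of all genes, and all 7 were lower, beside 3.05% of all genes. Without J20+ night library 2 there were 18, with no share over all genes at hand to set beside them. In that fit 54 members were negative (median -0.18 against 0.05 over all genes). It still called 0 members in edgeR, and 5 of 16310 genes. With all libraries, 48 members were negative and 22 positive (median -0.12 against 0.02 over all genes). All 3 regulators of inner arms, Cfap57, Cfap73 and Cfap100, were negative. Ependyma markers summed to 194.7 to 638.8 CPM by day and 196.5 to 344.8 CPM at night, with 2 of 12 values positive (median -1.08). Of astrocyte and neuron markers 1 of 10 each was positive (medians -1.75 and -0.75). With the ependyma score in the fit 42 members were negative and with the neural score 49; beyond this the part of these markers was not tested.

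J20+ and J20- mice were compared by day to find genes that differ with the transgene. No axoneme member passed the test, and the smallest p-values were those of Cfap99, Cfap73 and Cfap58, all with higher values in J20+ mice.

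Cfap99, which is assigned to the central apparatus, was at 4.34, 0.420, 1.20 and 1.15 CPM in J20+ day and at 1.04, 0.668, 0.414 and 0.560 CPM in J20- day libraries. The groups overlapped and library 1 of J20+ stood highest, at a log2 fold change of 1.41 ± 0.55 (adjusted p = 0.989, edgeR). Without that library it was 0.47. J20- day libraries had Cfap73 at 2.25, 3.08, 3.73 and 4.59 CPM and Cfap58 at 3.34, 4.01, 2.72 and 3.58 CPM, both overlapping the J20+ values above. The log2 fold changes were 0.49 ± 0.22 for Cfap73 and 0.47 ± 0.23 for Cfap58. Foxj1 had -0.04 ± 0.14, Ccdc39 -0.36 ± 0.42 and Ccdc40 0.79 ± 0.66, and without J20+ day library 1 Ccdc40 had -0.65.

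Neither edgeR nor DESeq2 called a member or any gene (0% of 16065). At an unadjusted p under 0.05 there were 2 members (2.86%), beside 1.87% of all genes. In sign, 38 were positive and 32 negative, with a median of 0.02 against 0.03 over all genes. Ependyma (10 of 12, median 0.86), neuron (10 of 10, 1.03) and astrocyte markers (9 of 10, 1.45) were mostly positive; with the ependyma score in the fit 41 members were negative. The median SE of a member was 0.26.

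At night the same comparison of J20+ with J20- gave no call among axoneme members, with Cfap61, Cfap54 and Rsph3b at the smallest p, all with higher values in J20+ mice. This result depends on a single library. Without J20+ night library 2, 37 of 70 members (52.9%) were called, beside 57.7% of all genes. Of the 37, 13 were higher and 24 lower in J20+.

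Cfap61 was at 16.2, 2.49, 19.4 and 17.7 CPM in J20+ night libraries, and the J20- night libraries given above lay between 2.32 and 3.43 CPM. In J20+, 3 libraries were far above J20- and library 2 was within its range. Its log2 fold change was 2.29 ± 0.54, 4.9-fold (adjusted p = 0.0917, edgeR), and without library 2 it was 2.65 ± 0.39 (adjusted p = 0.00166, edgeR). Cfap54 was at 45.9, 18.1, 46.0 and 37.4 CPM in J20+ night libraries, again with library 2 near the J20- values. The log2 fold change was 1.12 ± 0.35 (adjusted p = 0.0917, edgeR) and 1.36 ± 0.32 without that library (adjusted p = 0.00422, edgeR). Rsph3b, a radial spoke gene with the near-identical copy Rsph3a, so that its counts are uncertain, was at 11.5, 24.8, 34.0 and 36.9 CPM in J20+ and at 9.62, 10.4, 17.1 and 10.0 CPM in J20- night libraries. Its groups overlapped, at 1.18 ± 0.38 (adjusted p = 0.0917, edgeR).

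Ccdc39 and Ccdc40 had values on the other side. Ccdc39 had -0.30 ± 0.42 and, without library 2, -1.08 ± 0.25 (adjusted p = 0.00386, edgeR). Ccdc40 had -0.88 ± 0.66 and Foxj1 -0.27 ± 0.14 (95% interval -0.58 to 0.05). The signs of Ccdc39 and Ccdc40 turned with a marker score in the fit, to 0.30 and 0.63 with the neural score and to 0.24 and 0.59 with the ependyma score.

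With all libraries, edgeR called 0 of 70 members and 0.00622% of all genes, and DESeq2 called 8 members and 18.7% of all genes. The 8 were Cfap206, Cfap54, Cfap61, Cfap97, Cfap97d2, Drc7, Rsph3b and Rsph4a. At an unadjusted p under 0.05 there were 14 members (20%), beside 31.9% of all genes, and 11 were higher, beside 20.4% of all genes. In sign, 25 were positive and 45 negative (median -0.17 against -0.01 over all genes). Without J20+ night library 2, the 37 called members were 52.9% of the 70, beside 57.7% of all genes called, 29.6% higher and 28.1% lower. The share of members is thus near that of all genes. Without J20+ day library 1 as well, 48 members (68.6%) were called, beside 62.9% of all genes. Rsph4a (1.21 ± 0.21), Cfap97 (1.29 ± 0.24) and Drc7 (0.40 ± 0.16) were among those higher in J20+. Cfap43 (-1.16 ± 0.20), Drc1 (-0.78 ± 0.14), Cfap410 (-0.64 ± 0.13) and Cfap126 (-0.65 ± 0.14) were among those lower. The same marker differences as above apply, since J20- night libraries had neural scores of 4.02 to 6.77 against 1.16 to 4.80 in J20+ night. All 12 ependyma markers had negative values in J20+ (median -0.96). Of choroid epithelium markers 13 of 15 had positive values in J20+ (median 0.71), all but Ttr and Steap1. With the ependyma score in the fit, the members' median was 0.12 and 28 of 70 values were negative; what the markers contribute was not tested beyond this.

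Other ciliary lists in the remaining comparisons had these signs. After sleep disruption, 35 of 48 genes for other axoneme parts were positive (median 0.07), as were 23 of 31 intraflagellar transport genes (0.05) and 5 of 10 BBSome genes. In J20- night against day, 29 of 48 other axoneme genes were positive (0.15), while 9 of 31 intraflagellar transport genes (-0.22) and 3 of 10 BBSome genes (-0.26) were. Between genotypes at night, 18 of 48 other axoneme genes (-0.15), 24 of 31 intraflagellar transport genes (0.17) and 7 of 10 BBSome genes (0.29) were positive. These share the J20- night libraries with the comparison before, so the opposite signs are not independent. In J20+ night against day, 19 of 48 other axoneme genes (-0.04) and 17 of 31 intraflagellar transport genes (0.01) were positive.

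The interaction term asks whether the night against day difference depends on genotype, as the J20+ difference minus the J20- difference. No axoneme member passed, and Cfap161 (-1.05 ± 0.36, adjusted p = 0.359), Cfap61 (1.86 ± 0.73, adjusted p = 0.363) and Cfap99 (-1.93 ± 0.77, adjusted p = 0.363) had the smallest p in edgeR. Neither edgeR (0% of all genes) nor DESeq2 (0.056% of all genes) called a member. At an unadjusted p under 0.05 there were 9 members (12.9%), beside 12.4% of all genes. In sign, 29 were positive and 41 negative (median -0.07 against 0.06 over all genes). Foxj1 had -0.23 ± 0.20, Ccdc39 0.06 ± 0.59 and Ccdc40 -1.67 ± 0.93. Ccdc40 turned to 0.52 with the neural score and 0.85 with the ependyma score in the fit, and Ccdc39 to -0.73 without J20+ night library 2. Without J20+ night library 2, edgeR called 11 members (15.7%), 3 positive and 8 negative, beside 20.9% of all genes. Cfap61 (2.22 ± 0.52), Rsph4a (0.93 ± 0.28) and Cfap97 (1.00 ± 0.33) were the positive ones. Drc1 (-0.80 ± 0.19) and Cfap43 (-0.91 ± 0.27) were among the negative ones. With all libraries, 15 of 15 choroid epithelium markers had positive interaction values (median 0.76). Few or no markers were positive for ependyma (1 of 12, -1.75), neurons (0 of 10, -3.75), astrocytes (1 of 10, -3.77) and oligodendrocytes (0 of 10, -1.93). Beyond adding a score to the fit, the part of these markers in the members' values was not tested.

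**Figure D3:**
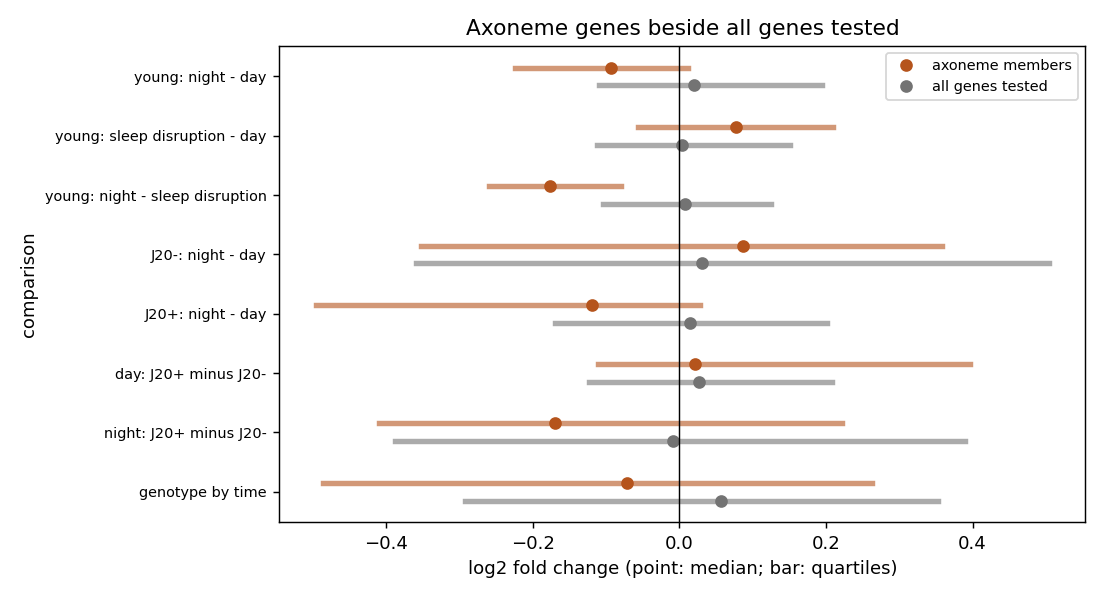
Median (point) and quartiles (bar) of the log2 fold change (horizontal) in each of the 8 comparisons (vertical), for axoneme members (orange) and all genes tested (grey). Member medians run from -0.18 at night against sleep disruption to 0.09 at night against day in J20- mice, and quartiles of members and all genes overlap in each comparison.

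Levels of many members in the aged table peaked in 1 of 2 J20+ libraries. J20+ day library 1 held the highest level of 22 of 70 members, and J20+ night library 2 of 17. Library 1 of J20+ day had Dnah5 at 35.9 CPM against 0.201 to 2.63 in the other 3, Dnah10 at 45.5 against 0.752 to 4.68, and Dnah12 at 29.9 against 0.452 to 2.73. All are dynein heavy chains. In J20- night, Dnah10 stood at 8.15, 12.3, 4.69 and 10.4 CPM, and in J20- day at 8.65, 1.20, 4.91 and 1.29 CPM. The ependyma score of J20+ day library 1 was 5.57, the highest of all aged libraries, and its neural score was 5.62. Its choroid epithelium score was 9.71, against 10.33 to 10.49 in the other J20+ day libraries.

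A different set was highest in J20+ night library 2. Ccdc39 was at 367 CPM, Cfap65 of the central apparatus at 744 against 199 to 235 in the other 3, and the inner arm tethers Cfap43 at 275 and Cfap44 at 415 CPM. The same library had low levels of Rsph4a (44.1 CPM against 138 to 161) and Tekt5, a tektin (2.21 against 9.98 to 13.1). Its choroid epithelium score was 9.16, the lowest of all aged libraries, its neural score 4.80 and its ependyma score 3.89. Dnah10 and Dnah5 stood at 6.73 and 3.11 CPM there, well under their values in J20+ day library 1. The part of the marker RNA in these values was not tested.

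**Figure D4:**
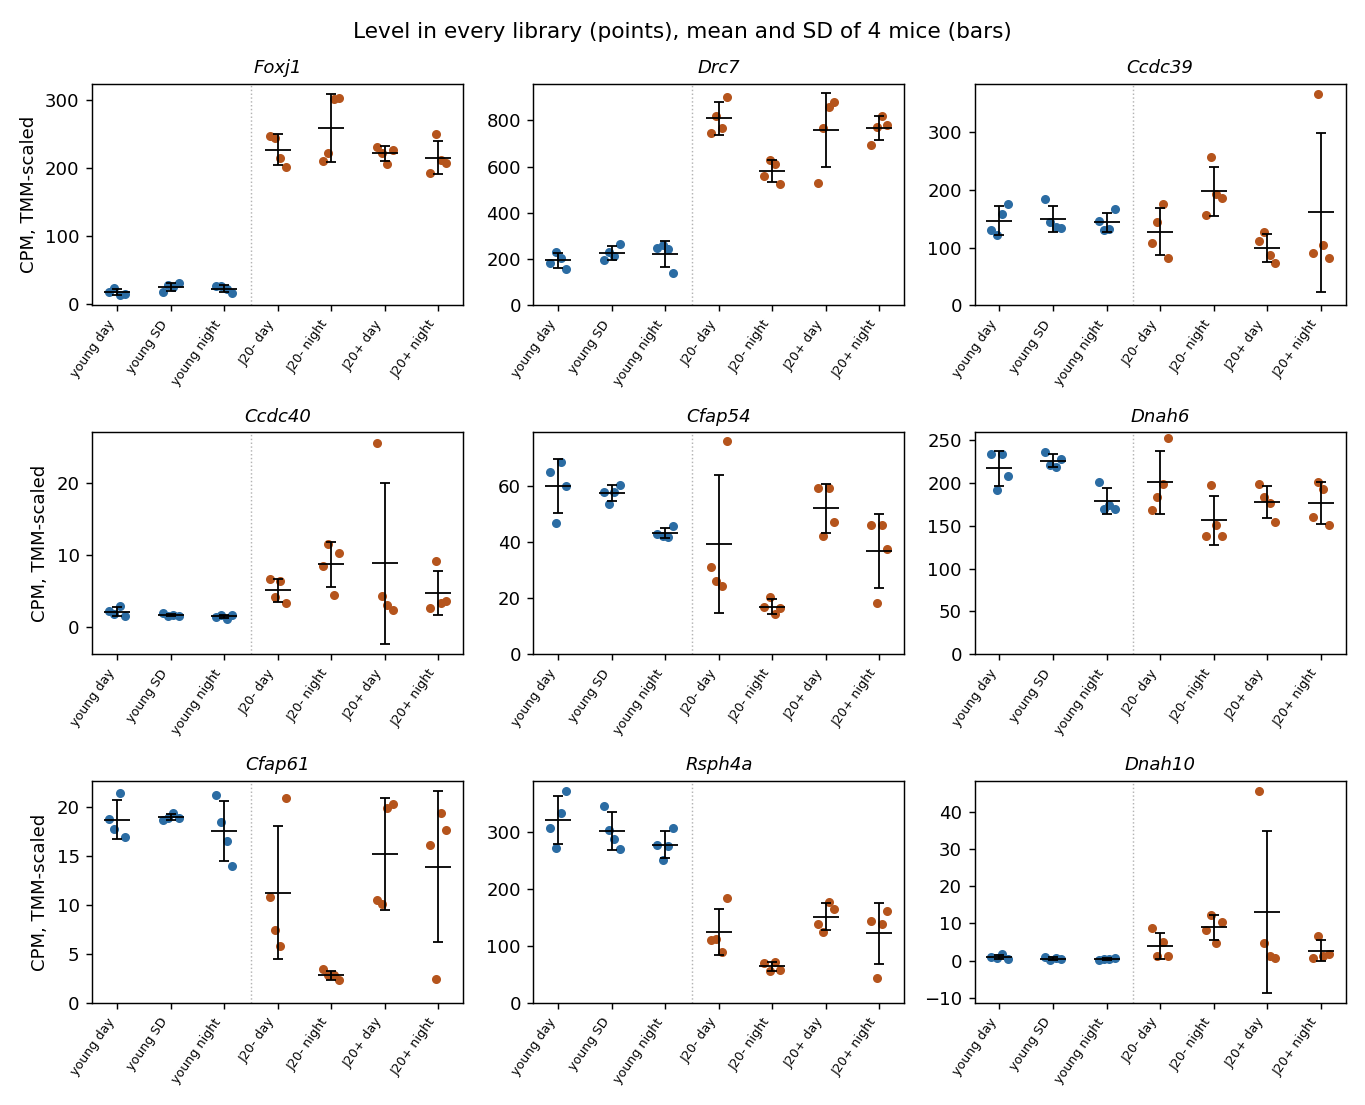
CPM scaled by TMM (vertical) of 9 members in all 28 libraries, with points for libraries and bars for the mean and SD of 4. Young (blue) and aged (orange) libraries come from separate batches and scalings and are not compared. J20+ night library 2 is the high point of Ccdc39 at 367 CPM, and J20+ day library 1 that of Dnah10 at 45.5 CPM.

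**Figure D5:**
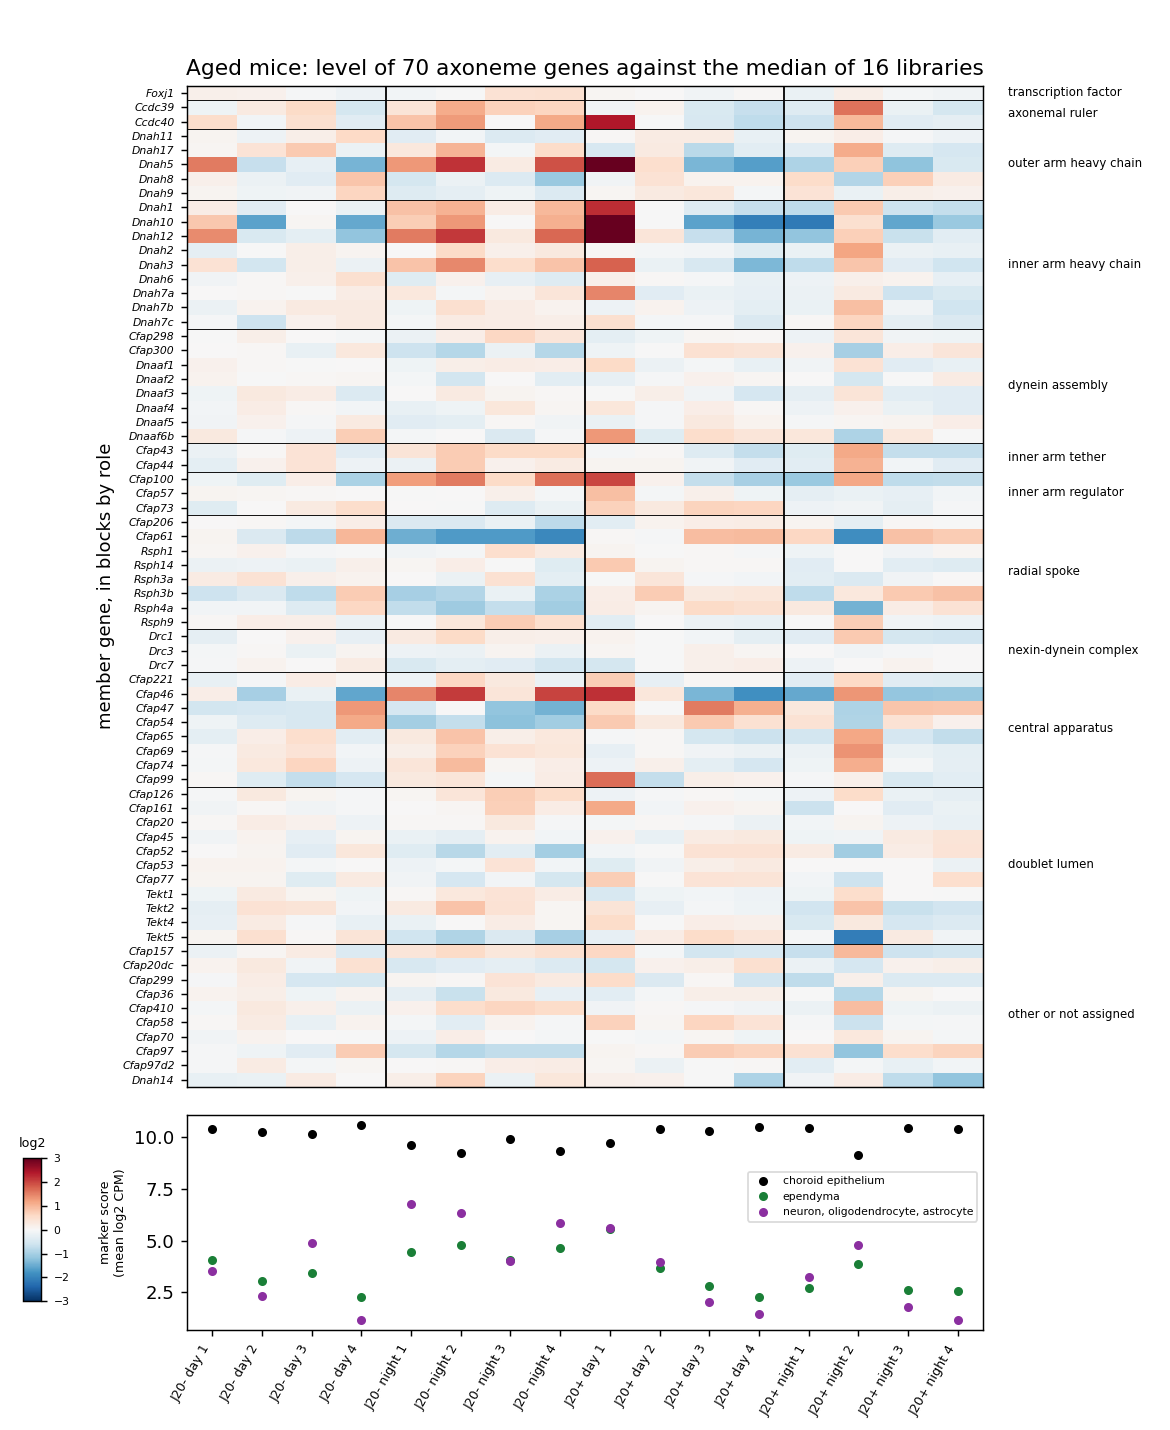
Level of the 70 members kept in the aged table (rows, in blocks by role) in 16 libraries (columns), as log2 of CPM plus 0.5 minus the member's median, red above and blue below, with marker scores under it (mean log2 CPM). Dnah5, Dnah10 and Dnah12 are red in J20+ day library 1, and Cfap61 is blue in all J20- night libraries and J20+ night library 2.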

How the data were processed

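Raw counts per gene (Entrez IDs, unit: counts, not normalized) came from both tables that the authors deposited, 1 for the 12 young and 1 for the 16 aged libraries, and no column was left out of use (0 columns). Per the labels' protocols, libraries were made with the TruSeq Stranded mRNA kit and sequenced on a NovaSeq. Per the submitters' processing notes, the tools named were featureCounts 2.0.1, HISAT2 2.2.1, cutadapt, FastQC 0.11.8 and Picard 2.18.2, besides DESeq2, and the build was mm10. Not given in the sources used here were the strand setting, the treatment of multiply mapped reads and the annotation, so counts of overlapping, antisense or near-identical genes are uncertain.

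Symbols and positions were taken from RefSeq (25275 of 27179 IDs matched, 93%). Exon lengths came from GENCODE, as the union of a gene's exons. CPM values were scaled by TMM within a table. Each table was fitted alone in R 4.3.3 with edgeR 4.0.16 (limma 3.58.1 installed) after filterByExpr: a coefficient per group, robust quasi-likelihood fit and test, Benjamini-Hochberg adjustment over all genes tested and a threshold of 0.05. Means are given with the SD and fold changes with the SE. Groups do not overlap where every library of a group lies on 1 side of every library of the other. The fit was tested on simulated data.

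The members, marker lists and other gene lists were chosen with earlier results of these data known. Genes named in each comparison are Foxj1, Ccdc39, Ccdc40, the called members or else the 3 with the smallest p. For levels, they are the highest of each family and the 5 highest and 5 lowest per kb, with members near the threshold of 0.5 CPM. Other members named were chosen after their values were seen. Alternatives were RLE and upper-quartile scaling, DESeq2 1.42.0, other count filters, neural or ependyma scores as covariates, the compared groups alone, and libraries left out.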

Additional observations from a re-analysis of the deposited data

Results flagged for a closer look

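In 159 sets of 4 libraries (34 named genes, each in the groups of its table) the highest or lowest library was compared with the rest, and 21 sets had a gap, as a share of the whole range, above Dixon's critical value. Chance flags about 1 in 20 groups. The sets are not independent, since the genes share libraries, and many genes were named for their p or level. The count of flagged sets is therefore not a test against that rate. The value after each level is that gap as a share of the range.

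J20+ night library 2 accounted for 10 of them. It was highest for Ccdc39 (367 CPM, 0.923), Ccdc40 (9.22 CPM, 0.867), Cfap298 (156 CPM, 0.957), Cfap46 (3.96 CPM, 0.950), Cfap65 (744 CPM, 0.934) and Dnaaf3 (77.6 CPM, 0.931). It was also highest for Dnah17 (7.01 CPM, 0.943), Rsph9 (270.0 CPM, 0.883) and Tekt1 (166 CPM, 0.838), and lowest for Cfap58 (1.92 CPM, 0.955).

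J20+ day library 1 was highest for Ccdc40 (25.6 CPM, 0.916), Cfap161 (27.8 CPM, 0.886) and Dnah7a (7.33 CPM, 0.955), and J20+ day library 2 lowest for Cfap73 (3.84 CPM, 0.865). J20- day library 4 was highest for Cfap54 (75.9 CPM, 0.867) and Rsph3b (33.9 CPM, 0.867). J20- night library 3 was highest for Rsph3b (17.1 CPM, 0.892).

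In the young table, night library 4 was lowest for Drc7 (139 CPM, 0.844) and Tekt1 (45.5 CPM, 0.922), and night library 1 highest for Dnah6 (201 CPM, 0.859). Sleep disruption library 3 was lowest for Cfap20dc (14.0 CPM, 0.867).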

How the results depend on the processing

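The count of called members stayed at 0 in all alternatives after sleep disruption (16) and between genotypes by day (17). DESeq2 called 2 members in young night against day (1.72% of all genes), 4 against sleep disruption (2.08%) and 7 in J20- night against day (8.65%). It called 1 in J20+ night against day (0.492% of all genes) and 8 between genotypes at night (18.7%). Leaving out 1 library at a time gave 0 to 1 in young night against day (Cfap54, without young day library 2). It gave 0 to 37 between genotypes at night and 0 to 11 for the interaction. The upper values of these came without J20+ night library 2, beside 57.7% and 20.9% of all genes. Without both of these J20+ libraries, night library 2 and day library 1, edgeR called 23 in J20- night against day (44.4% of all genes) and 48 between genotypes at night (62.9% of all genes), and the J20- groups alone gave 15 (26.2% of all genes). No paired analysis was possible because the replicate numbers follow the order of the records and mark separate samples.

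Values of Ccdc39, Ccdc40 and Foxj1 turned sign, some near 0 and some, chiefly those of Ccdc40 in the aged table, far from it. In young night against day Ccdc39 had 0.00 with a filter of 10 CPM, 0.02 with the ependyma score and -0.11 to 0.07 with 1 library left out; likewise it had -0.08 to 0.13 after sleep disruption and -0.13 to 0.06 at night against it. With the neural score Ccdc39 had -0.05 and Ccdc40 -0.70 in J20- night against day, 0.30 and 0.63 between genotypes at night, and Ccdc40 had 0.52 for the interaction. With the ependyma score Ccdc40 had -0.58 in J20- night against day, 0.27 in J20+, -0.26 between genotypes by day, 0.59 at night and 0.85 for the interaction, and Ccdc39 0.24 between genotypes at night. With 1 library left out Ccdc39 had -0.10 to 0.91 in J20+ night against day and -0.73 to 0.28 for the interaction, Ccdc40 -1.45 to 0.52 in J20+ night against day and -0.65 to 1.10 between genotypes by day, and Foxj1 -0.07 to 0.04 between genotypes by day. Without both Ccdc39 had -0.05 in J20+ night against day and -0.68 for the interaction, and Ccdc40 -0.65 between genotypes by day. The cause was not tested. Members at a few CPM, such as Ccdc40 and several heavy chains, have the widest errors.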
